A study of Danio rerio with 12 samples.

Results

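The circadian clock genes cry1b, bmal1b and rorab were followed across 12 Affymetrix arrays of adult zebrafish retina and brain. The 3 genes were picked with earlier results of these data known, and their probe sets were found by gene symbol. In the platform annotation each gene had 1 probe set that carried its symbol and no other, so the 3 genes, out of 8793 represented, make up 3 of 15502 measured probe sets; the probe set identifiers head the panels of the plot of signals by array. All 3 passed the filter on dim signals in every comparison. Lesioned retina had 5 arrays, 1 each at 2, 3, 5, 7 and 14 days post-lesion, and control retina from matched animals had 5 arrays on the same days. There was 1 array of brain from unlesioned fish and 1 of retina that the submitters call a true control. The design text gives at least 8 animals for each condition. The labels say nothing of strain, sex, the kind of lesion, pooling of RNA or the hour at which tissue was taken. Nor do the labels say whether the control retinas came from the lesioned fish. The true control and the 5 control retinas are together called the 6 intact retinas, which is only a name for the group.

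The vertebrate circadian clock is a transcription loop. CLOCK and BMAL proteins pair on DNA and activate the period and cryptochrome genes, whose products then shut the pair down. A second loop acts on the bmal genes themselves, with receptors of the ROR family as activators and those of the NR1D (REV-ERB) family as repressors. The zebrafish genome holds duplicates of many of these genes, and cry1b and bmal1b have the counterparts cry1a and bmal1a on the array. The vertebrate retina runs a clock of its own, and in zebrafish many tissues hold clocks that light can set directly. Many clock transcripts therefore cycle with the hour of the day.

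Values are signal intensities, deposited after scaling each array to a trimmed mean near 500, and changes are differences of log2(signal + 50). The probes used as hybridization controls separated the arrays into 2 array blocks of 6. Block 2 holds the lesioned and control retinas of days 3, 5 and 7, and block 1 holds those of days 2 and 14, the true control and the brain. The ratio of 5' to 3' signal of the housekeeping gene GAPDH, a measure of RNA or labelling quality, ranged over 0.103 to 0.245 in block 2, against 0.692 to 0.854 in block 1. The lesioned and control arrays of any day share a block, so the lesion was compared within blocks, while block and day cannot be told apart. A probe set is said to have changed, or to be called, where limma's p adjusted over all tested probe sets was under 0.05. Errors written after ± are standard errors of that fit unless named SD. Each condition has 1 array, and nothing says which arrays came from separate animals, so the p-values cover no more than the spread among these arrays, part of which may be technical.

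cry1b, a cryptochrome gene of the repressor arm, had the widest range of the 3 genes. Its signal in lesioned retina was 1456.4 on day 2, 250.8 on day 3, 493.5 on day 5, 564.3 on day 7 and 2351.4 on day 14. In control retina it was 2272.3, 460.2, 855.2, 769.2 and 3188.8 on the same days. The lesioned array lay below the control array of its own day on all 5 days, yet the groups overlapped widely, because the arrays of days 2 and 14 were far brighter than those of days 3, 5 and 7 in both. The true control retina had a signal of 1267.6 and the brain 705.1.

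bmal1b encodes an activator, a partner of CLOCK. Its signal in lesioned retina was 265.9 on day 2, 784.3 on day 3, 393.5 on day 5, 296.8 on day 7 and 276.5 on day 14. In control retina it was 319.2, 639.5, 380.0, 281.4 and 373.8 on those days. Day 3 stood highest in both groups, and the other 8 arrays of these groups lay between 265.9 and 393.5. The true control retina had 286.1 and the brain 90.7, the lowest of the 12 values.

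rorab encodes a nuclear receptor of the second loop, related to retinoid receptors. Its signal in lesioned retina was 2893.4 on day 2, 3074.6 on day 3, 2850.7 on day 5, 2967.8 on day 7 and 2644.7 on day 14, the narrowest spread of the 3 genes, with 1.16-fold between the highest and the lowest array. In control retina it was 3490.9, 3575.4, 2708.5, 3914.9 and 2549.8, and the groups overlapped. The true control retina was brightest of the 12 arrays at 4642.4, and the brain was dimmest at 1287.3.

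**Figure D1:**
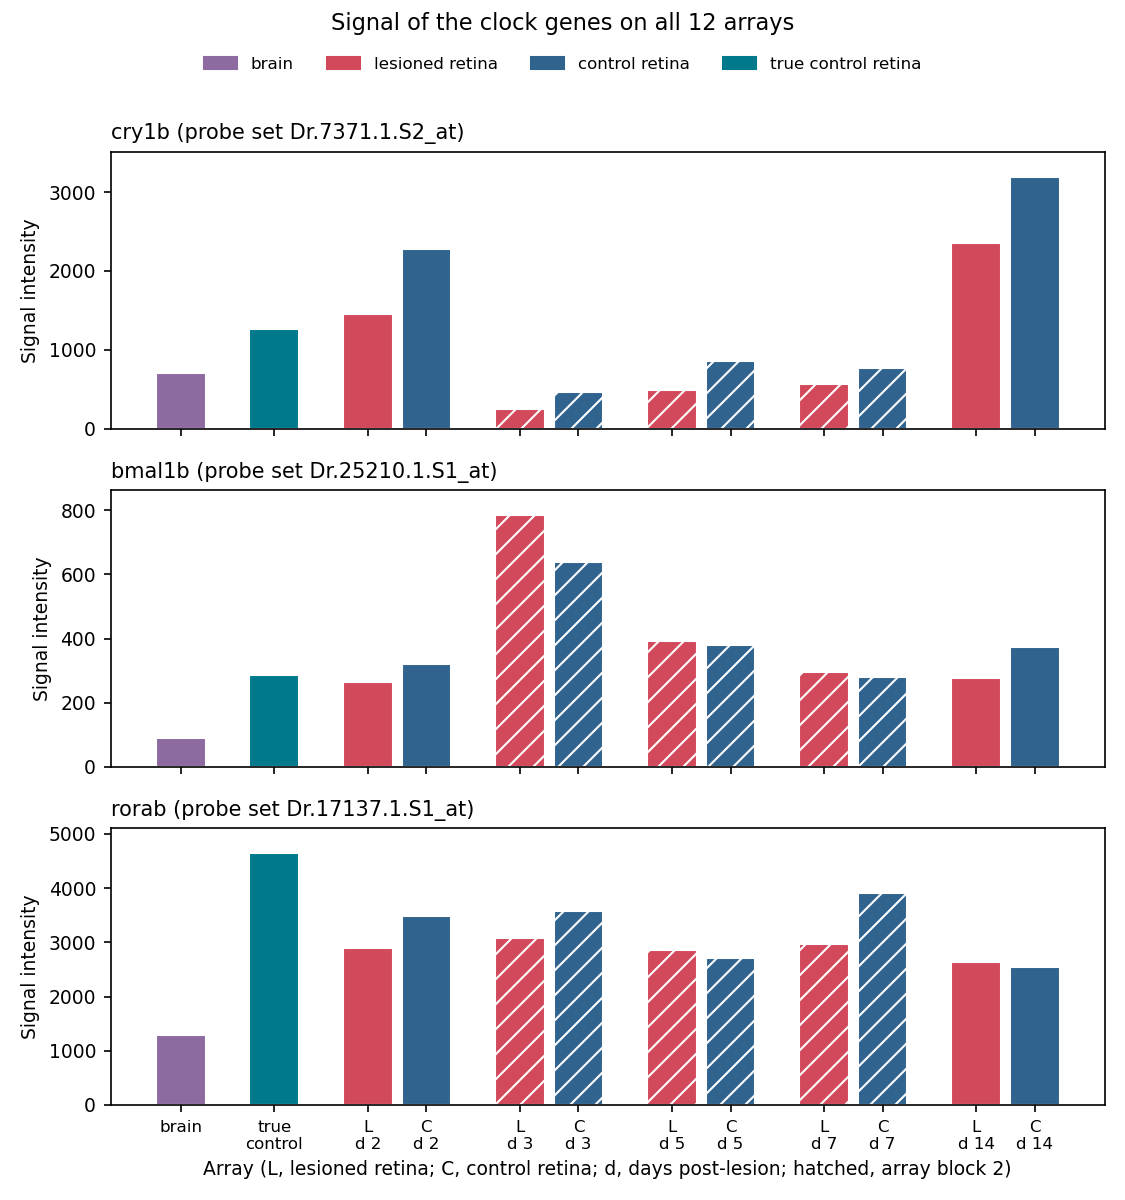
Signal intensity (linear scale, from 0) of cry1b, bmal1b and rorab on each of the 12 arrays, 1 bar per array, with lesioned (L) and control (C) retina of the same day side by side and block 2 hatched. For cry1b each lesioned bar is lower than its control bar and the hatched bars are low, bmal1b is high on day 3 in both groups, and the brain bar is the lowest for bmal1b and rorab.

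The first question was whether these genes changed with the lesion, comparing each lesioned array with the control array of its day. cry1b fell, by 0.59 ± 0.10 on the log2 scale, which is 1.51-fold (95% interval -0.81 to -0.38, adjusted p = 0.00357). Among all 9301 tested probe sets 4.1% were called, 3.56% higher (331) and 0.538% lower (50). With each array centred on its median, 274 were called higher and 160 lower, and the fall of cry1b was called in that setting as well. The log2 ratios of cry1b were -0.62 on day 2, -0.76 on day 3, -0.74 on day 5, -0.42 on day 7 and -0.43 on day 14, with an SD of 0.16 over the 5 days. Between 1.19% (day 5) and 7.26% (day 7) of tested probe sets had a lower ratio than cry1b on a given day. All 5 ratios of a probe set were below 0 in 7.2% of tested probe sets. An exact two-sided sign-flip test over the 5 pairs gave cry1b p = 0.0625, the smallest that 5 pairs allow.

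Across both blocks the log2 values of cry1b in the 6 intact retinas spanned 2.67 with an SD of 1.0, and within blocks their pooled SD was 0.56, close to the size of the fall. Without the day as a block the difference was -0.59 with an adjusted p of 1. In that setting limma called 0 of all tested probe sets, and 351 had an unadjusted p under 0.05. In the 3 pairs of block 2 alone cry1b fell by 0.64 (adjusted p = 0.0147), and in the 2 pairs of block 1 alone the change was -0.53 (adjusted p = 0.428, where limma called 0 of all tested probe sets and 784 had an unadjusted p under 0.05). Fitted with the GAPDH ratio beside the day block, cry1b changed by -0.48 (adjusted p = 0.432), and limma called 10 of all tested probe sets. On all 5 days the GAPDH ratio was lower in lesioned than in control retina.

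bmal1b and rorab were not called. The change of bmal1b was -0.04 ± 0.11 (95% interval -0.29 to 0.20, adjusted p = 0.886), with day ratios of -0.22, 0.28, 0.04, 0.07 and -0.38 on days 2, 3, 5, 7 and 14. That of rorab was -0.15 ± 0.10 (95% interval -0.36 to 0.06, adjusted p = 0.477), with day ratios of -0.27, -0.21, 0.07, -0.39 and 0.05. The exact sign-flip test over the 5 pairs gave p = 0.8125 for bmal1b and p = 0.25 for rorab. Neither gene kept 1 direction over the 5 days. The change of bmal1b was -0.30 in block 1 alone and 0.13 in block 2 alone. With the GAPDH ratio beside the day block it was -0.32, and bmal1b was called in none of these settings.

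**Figure D2:**
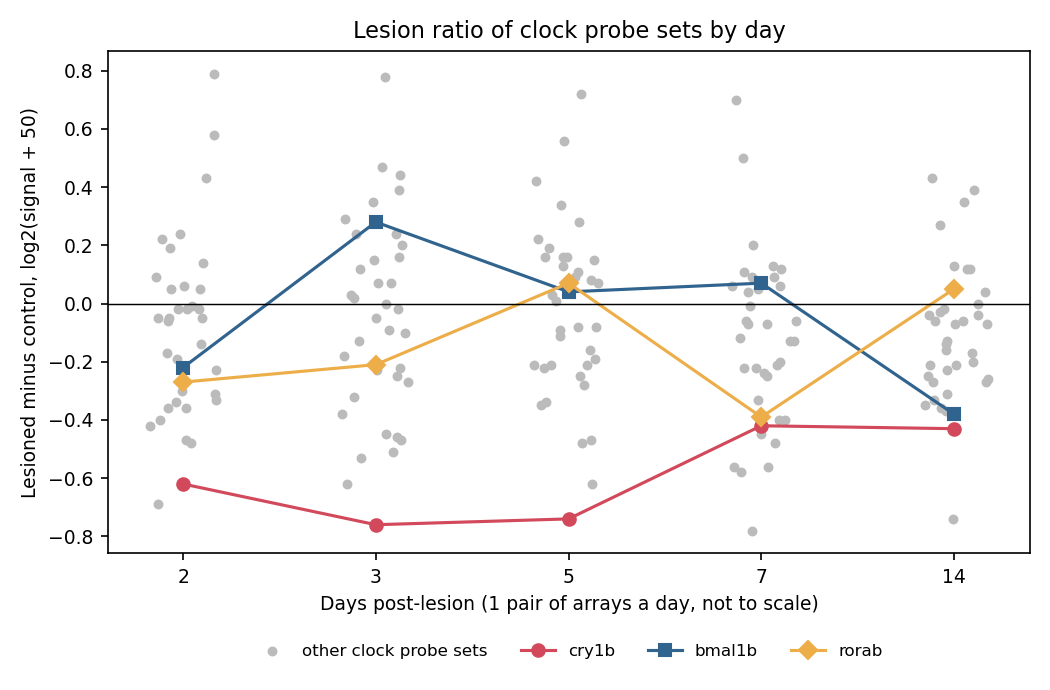
Log2 ratio of lesioned to control retina (signal + 50) on each day post-lesion for cry1b, bmal1b and rorab (lines) and the other tested clock probe sets (grey points, 1 pair of arrays a day, days not spaced to scale). cry1b lies between -0.76 and -0.42 on all 5 days, while bmal1b and rorab lie on both sides of 0.

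Whether the lesion change moved with time was asked with log2 of the day. The slope per doubling of the day was 0.10 ± 0.11 for cry1b, -0.09 ± 0.12 for bmal1b and 0.08 ± 0.11 for rorab, each with an adjusted p of 1. By limma 10 of 9301 probe sets (0.108%) had a slope past the threshold. The difference in lesion change between block 2 and block 1 was 0.43 for bmal1b (95% interval -0.03 to 0.89), whose ratios were above 0 on days 3, 5 and 7 and below 0 on days 2 and 14. It was not called (adjusted p = 1). It was -0.11 for cry1b and -0.07 for rorab. How many of all tested probe sets have ratios that split by block as those of bmal1b do was not counted. No probe set was called in this comparison by limma (0 of 9301, 0%), and 431 had an unadjusted p under 0.05. The comparison sets 3 pairs of arrays against 2, so differences between the blocks could have been missed.

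The wider clock list held 59 genes in 8 roles, of which 35 were on the array with 45 probe sets, 38 of them tested for the lesion. cry1b was the 1 probe set called (2.63%, against 4.1% of all tested probe sets). Of the 38, 30 lay below 0, with a median of -0.08 against -0.01 over all tested probe sets. The 38 probe sets share the same 5 pairs of arrays, so the 30 are not separate observations. Day by day the median of the list was -0.10, -0.03, 0.02, -0.13 and -0.13 on days 2, 3, 5, 7 and 14. By role, limma called 1 of 11 tested probe sets of repressors and none of 3 of activators, 5 of nuclear receptors, 6 of PAR bZIP and D-box factors, 2 of bHLH repressors, 6 of kinases and ubiquitin ligases, 4 of photolyase relatives and 1 of outputs. At an unadjusted p under 0.05 there were 6 of the 38 clock probe sets, against 1684 of all 9301.

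Other small p-values in the list did not pass in the main fit. nfil3-5, of a family of D-box repressors, had -0.31 ± 0.09 (adjusted p = 0.0835) and lay below 0 on 5 of 5 days. In 2 of 15 alternative settings nfil3-5 was called. These were median centring (-0.37, adjusted p = 0.0405) and leaving out the day 14 pair (-0.37, adjusted p = 0.0474). The tested probe set of cry-dash, a photolyase relative, had 0.38 ± 0.12 (adjusted p = 0.0894) and lay above 0 on 5 of 5 days. Its other probe set, too dim to be tested, had a mean log2 ratio of 0.08 and lay above 0 on 4 of 5 days. usp2a, a ubiquitin protease gene whose mammalian relative is a clock output, had -0.30 ± 0.10 (adjusted p = 0.102). The counterparts of cry1b and bmal1b were not called either. cry1a, which light induces in zebrafish, had -0.01 ± 0.12 (adjusted p = 0.966), and bmal1a had -0.11 ± 0.10 (adjusted p = 0.628).

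Some cell type markers moved with the lesion. The summed signal of 8 rod probe sets was 63986 to 96226 in lesioned retinas and 95824 to 117876 in control retinas, and was lower on 5 of 5 days, with gngt1 and guca1b as the 2 probe sets called lower. The summed signal of 10 microglia and leukocyte probe sets was 4921 to 10482 in lesioned retinas and 2406 to 4794 in control retinas, and 7 of the 8 tested were called higher. The Müller glia sum was 31902 to 45171 in lesioned retinas and 29899 to 40375 in control retinas, and was lower on none of the 5 days. Of the 8 tested Müller glia probe sets 3 were called higher, while 3 had a lesion change below 0. Erythrocyte markers had log2 ratios of the lesioned to the control sum of 1.80, 2.53, 0.83, 0.61 and -0.78 on days 2, 3, 5, 7 and 14, with 0 of 3 probe sets called by limma and 3 at an unadjusted p under 0.05. The cone sum was lower on 2 of 5 days with 1 of 13 probe sets called lower, the ganglion cell sum was lower on 2 days with 1 of 4 called higher, the pigment cell sum was lower on 2 days with 1 of 4 tested called higher, and the myelin sum was lower on 3 days with 0 of 2 called by limma and 0 at an unadjusted p under 0.05. No marker probe set was at 0. The part of these markers in the fall of cry1b was not tested. In whole retina, fewer cells of a type and less RNA per cell cannot be told apart.

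Brain was compared with the 6 intact retinas with the array block as a term, which sets the brain level against the 3 intact retinas of its own block. The 1 brain array was assumed to vary as the retinas do. All 3 genes were lower in brain. rorab was lower by 1.39 ± 0.33 on the log2 scale (fit coefficient -1.39, adjusted p = 0.0142, 2.62-fold), bmal1b by 1.41 ± 0.36 (-1.41, adjusted p = 0.0188, 2.66-fold) and cry1b by 1.51 ± 0.47 (-1.51, adjusted p = 0.0447, 2.84-fold). The bmal1b signal in brain was dim, near the lower quartile of that array (81.2), so the probe set passed the filter through the retinas and the size of its difference depends on the pseudocount, at -1.67 with 16 and -0.98 with 150. Of all 9301 tested probe sets 24.3% were called, 14.1% higher and 10.3% lower in brain.

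The 3 calls did not rest on the same evidence. For bmal1b the brain signal of 90.7 lay below all 6 intact retinas (281.4 to 639.5), and for rorab that of 1287.3 lay below all 6 (2549.8 to 4642.4), as was so for 20.8% of tested probe sets. For cry1b the brain signal of 705.1 lay below 5 of the 6, since the day 3 control had 460.2. It lay below the 3 intact retinas of its own block for each of the 3 genes, as did the brain signal of 33.7% of tested probe sets. Both rorab (-1.61 to -1.18) and bmal1b (-1.67 to -0.98) stayed past the threshold in all 14 alternative settings, each only narrowly in its weakest setting. Every setting used the same 1 brain array, so the settings do not test how brain varies. The call of cry1b was lost in 6 of the 14. Without the array block term its difference was -0.72 (adjusted p = 0.661), without the day 2 control retina -1.45 (adjusted p = 0.108) and without the day 14 control retina -1.21 (adjusted p = 0.0814). It was -1.51 without a filter (adjusted p = 0.0604), without the day 7 control retina (adjusted p = 0.0551) and without the day 5 control retina (adjusted p = 0.0662).

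Against the single intact retinas of block 1, the brain value of rorab differed by -1.81 from the true control, -1.40 from the day 2 control and -0.96 from the day 14 control. The same differences were -1.26, -1.39 and -1.59 for bmal1b and -0.80, -1.62 and -2.10 for cry1b. The order of the 3 retinas was thus opposite for rorab and for the other 2 genes.

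In the clock list 11 of 39 tested probe sets (28.2%) were called between brain and intact retina, against 24.3% of all tested probe sets. Of the 11, 1 was higher and 10 were lower, where over all tested probe sets 14.1% were higher and 10.3% lower. The median of the list was -0.32 against 0.06 over all tested probe sets. Among activators bmal1a was lower with bmal1b, by 1.03 ± 0.31 (-1.03, adjusted p = 0.0378). Among repressors and their relatives cry3b was lower by 2.12 ± 0.29 (-2.12, adjusted p = 0.000675) and cry3a by 1.82 ± 0.52 (-1.82, adjusted p = 0.0319). nfil3-5 was lower by 2.10 ± 0.52 (-2.10, adjusted p = 0.0172), and 1 of 2 probe sets of nfil3-6, usp2a and the casein kinase gene csnk1db were lower as well, at -0.93, -0.91 and -1.35. The kinase gene csnk1e was the 1 higher in brain, at 0.86 ± 0.21 (adjusted p = 0.0160). Leaving out any 1 intact retina kept the calls of cry3b, nfil3-5 and csnk1e. bmal1a was not called without the true control (-1.06), the day 2 control (-1.11) or the day 14 control (-0.93), and cry3a not without the day 2 (-1.70), day 14 (-1.74) or day 5 control (-1.82). usp2a and nfil3-6 lost their calls without the true control (-0.89 and -0.82), the day 2 control (-0.93 and -0.97) or the day 14 control (-0.93 and -1.0), and csnk1db without the day 2 control (-1.23). Without the array block term 2 clock probe sets were called, those of bmal1b and rorab, and cry3b had -0.33 and cry3a -0.16. Without the day 2 control retina 5 were called. Rod markers summed to 1038 in brain and 115549 to 117876 in the intact retinas of block 1, cone markers to 1925 and 253199 to 258708, and myelin markers to 16974 and 3585 to 6865. Their part in the clock differences was not tested.

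**Figure D3:**
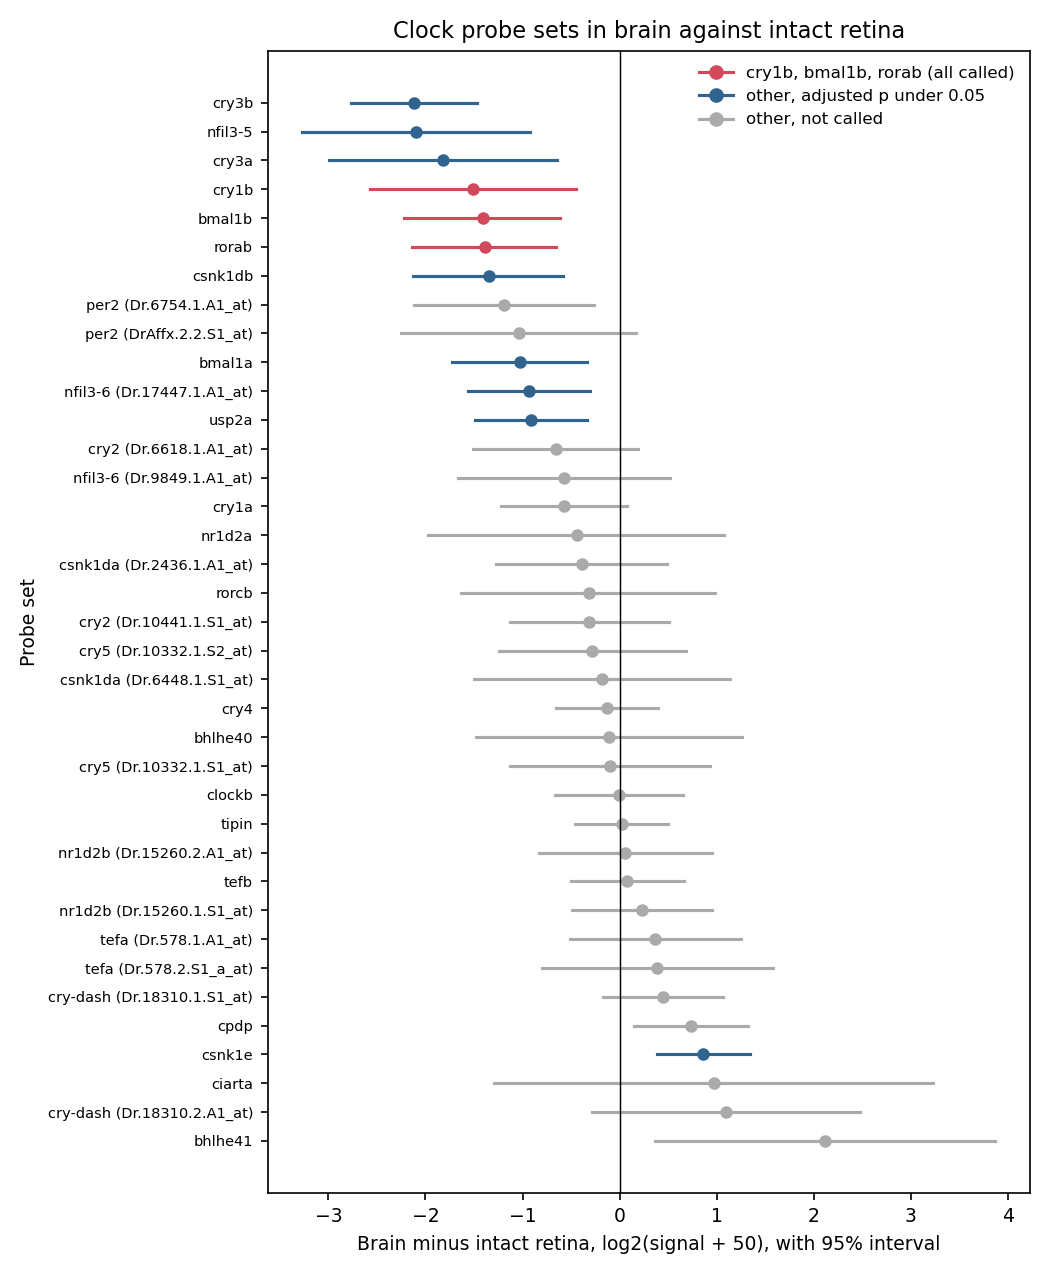
Difference in log2(signal + 50) between brain (1 array) and intact retina for 37 of the 39 tested clock probe sets, with 95% intervals from limma. The fit held all 6 intact retinas with array block as a term. Each point thus sets brain against the 3 intact retinas of its own block. Red marks cry1b, bmal1b and rorab, blue the other called probe sets and grey those not called. The 3 genes lie between -1.51 and -1.39, among the 10 probe sets called lower, and csnk1e is the 1 called higher.

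The intact retinas differed among themselves. Over the 6 the SD of log2(signal + 50) was 1.0 for cry1b, 0.39 for bmal1b and 0.32 for rorab, wider than in 95.7%, 57.5% and 44.4% of tested probe sets in that order. Within array blocks the pooled SD was 0.56 for cry1b, 0.40 for bmal1b and 0.36 for rorab, wider than in 96.7%, 88.9% and 84.3% of tested probe sets. Over the clock list the median within-block SD was 0.42, against 0.22 over all tested probe sets, and 35 of 39 clock probe sets lay above 0.22. Within block 1 the true control differed from the mean of the day 2 and day 14 controls by -1.06 for cry1b, -0.24 for bmal1b and 0.63 for rorab.

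**Figure D4:**
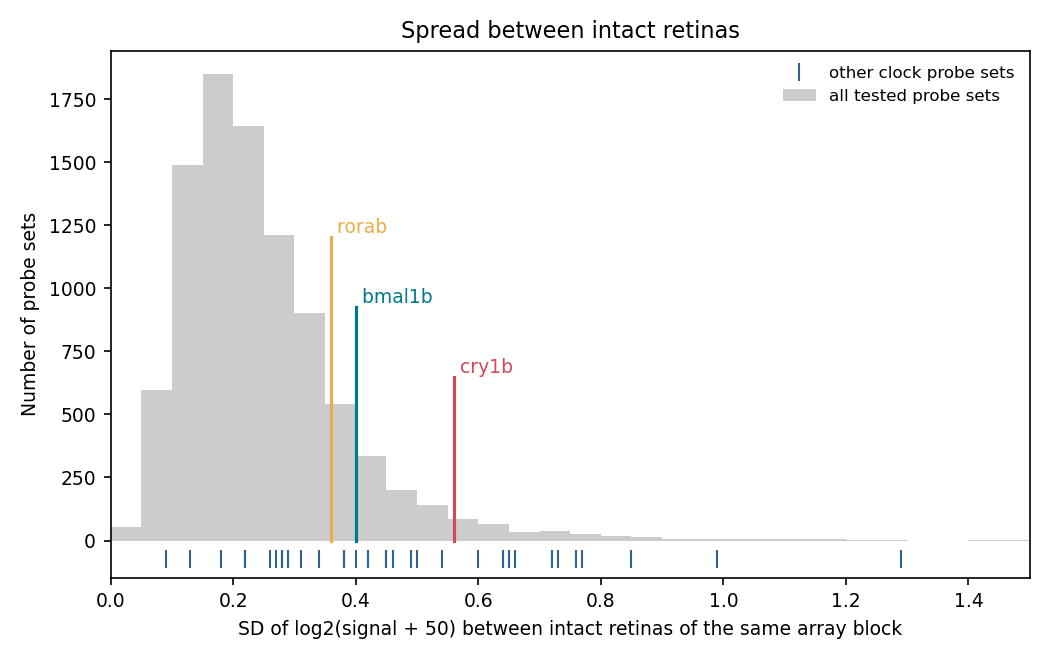
Number of tested probe sets (grey bars) by the pooled SD of log2(signal + 50) between intact retinas of the same array block (n = 6 arrays), with cry1b, bmal1b and rorab as labelled lines and the other clock probe sets as blue ticks below 0; the height of the lines has no meaning. rorab (0.36), bmal1b (0.40) and cry1b (0.56) lie right of the median of all probe sets (0.22), in the upper part of the distribution.

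Between blocks cry1b differed most of the 3. In the intact retinas of block 2 its signal was 460.2 to 855.2, against 1267.6 to 3188.8 in those of block 1, with no overlap. It was lower in block 2 by 1.57 ± 0.33 on the log2 scale (-1.57, 2.97-fold, adjusted p = 0.00484), a call that held in all 13 alternative settings. In this comparison 44.3% of all tested probe sets were called, 16.8% higher and 27.5% lower in block 2. The blocks did not overlap for 55.2%, and for 33.2% block 2 lay lower without overlap. bmal1b differed by 0.30 ± 0.25 (adjusted p = 0.357) and rorab by -0.04 ± 0.23 (adjusted p = 0.902). With each array centred on its median, which raised the median difference over all probe sets to 0.30 from -0.10, bmal1b was called at 0.70 (adjusted p = 0.0374) and rorab had 0.36. Relative to the median of all probe sets bmal1b had 0.40 and rorab 0.06 both as deposited and with median centring, and 0.42 and -0.22 with quantile normalization. Of all calls between blocks 1560 were higher and 2559 lower in block 2, against 3534 and 1327 with median centring and 1902 and 1894 with quantile normalization.

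Of the clock list 22 of 39 probe sets (56.4%) were called between blocks, against 44.3% of all tested probe sets. Of the 22, 8 were higher and 14 lower in block 2, where over all tested probe sets 16.8% were higher and 27.5% lower. Signals that did not overlap between blocks, as for several genes below, were found in 55.2% of all tested probe sets. Among cryptochromes cry1a was at -1.25, with signals of 470.5 to 823.7 in block 2 against 1521.9 to 1684.1 in block 1, and 1 of 2 probe sets of cry2 was at 2.00. cry3b had signals of 76.8 to 124.9 in block 2, against 1297.6 to 1941.2 in block 1. cry3a had 5.6 to 126.0 in block 2, against 690.2 to 1085.5 in block 1. The second loop repressor nr1d2a had 14.8 to 49.2 in block 2, against 300.6 to 1702.2 in block 1. The tested probe set of the PAR bZIP gene tefb had 6.5 to 31.1 in block 2, against 351.5 to 445.6 in block 1. These 4 were dim in block 2, where the lower quartile of the control arrays was 35.3 to 42.1, and they passed the filter through block 1. The sizes of their differences depend on the pseudocount, at -3.95 for cry3b, -4.05 for cry3a, -4.0 for nr1d2a and -3.58 for tefb with 16, and at -2.91, -2.40, -2.33 and -1.66 with 150. The bHLH repressor gene bhlhe40 was at 1.75. These probe sets kept their direction and call in all 13 alternative settings. Also called were 1 of 2 probe sets of tefa (-2.66) and of nfil3-6 (1.20), with bhlhe41 (1.72), clockb (-0.88), csnk1e (-0.85) and tipin (-0.45). Of these, tefa and csnk1e kept their calls in all 13 settings. The call was lost in 8 settings for tipin, in 4 for bhlhe41, and in 2 each for nfil3-6 and clockb. Both tested probe sets of nr1d2b (-1.46 and 1.55) and of csnk1da (-2.32 and 1.36) were called, in opposite directions, in all 13 settings. The csnk1da probe set at -2.32 was dim in block 2 as well, at 28.5 to 70.6, against 203.8 to 927.2 in block 1. It passed the filter through block 1, and its difference ranged from -2.84 to -1.59 over the settings. The probe sets of per2 (1.51 and -1.22) were also both called in opposite directions, though the second lost its call in 4 of 13 settings. Of the 7 clock genes with several tested probe sets, 5 had differences of opposite sign. The other 2 of these 5 were tefa (-2.66 and 0.11) and cry5 (-0.09 and 0.03). The second value of tefa was not called (adjusted p = 0.768), nor was either of cry5 (adjusted p = 0.829 and 0.947), so these signs are uncertain. cry1b, bmal1b and rorab have 1 probe set each, so such a check was not possible for them.

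Across the 11 retina arrays, after subtracting the mean of each block, the 3 genes did not follow a shared pattern. Pearson's r was -0.469 between cry1b and bmal1b, -0.366 between cry1b and rorab and -0.0673 between bmal1b and rorab. These are descriptions over 11 arrays that share days and blocks. The 5 genes most like bmal1b among 6879 named probe sets were atxn2l (r = 0.968), pcyt1aa (0.958), prkar2aa (0.957), caska (0.957) and aanat2 (0.954). bmal1b stood highest on the lesioned (784.3) and control (639.5) arrays of day 3, so its r values may rest largely on that 1 pair. aanat2 encodes an enzyme of melatonin synthesis, known in zebrafish as a clock-controlled gene of the pineal gland and retina. Within the clock list bmal1a (0.896) and nfil3-5 (0.894) were closest to bmal1b, singled out after their values were seen.

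The genes most like cry1b were fkbp1b (r = 0.969), ctdspla (0.963), zgc:63972 (0.921), zgc:66433 (0.913) and sgms1a (0.911). Their own lesion changes were -0.35, -0.34, -0.30, -0.50 and -0.20, and that of zgc:66433 was called (adjusted p = 0.00642). The values were centred on blocks but not on the lesion, so genes picked for likeness to cry1b tend to share its fall. These changes are therefore no separate evidence. The genes most like rorab were rgl3a (0.926), unc119a2 (0.896), 1 probe set of the casein kinase gene csnk1da (0.895), tmbim4 (0.894) and pla2g15 (0.886). No other lesion change of these 15 genes passed the threshold, which 4.1% of all tested probe sets did. Without the centring on blocks r was 0.173 between bmal1b and aanat2 and 0.839 between cry1b and fkbp1b. Over the 5 genes named for each, uncentred r ranged from 0.173 to 0.956 for bmal1b, 0.466 to 0.981 for cry1b and 0.397 to 0.848 for rorab.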

How the data were processed

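The deposited files hold 1 signal intensity per probe set and array, which the authors made with GCOS, a tool named without version or settings in the submitters' processing notes. Of 15617 probe sets 115 manufacturer controls were left out. The platform annotation named the probe sets, with 1 symbol for 10795, several for 135 and none listed for 4572. Symbols were updated by gene identifier where a RefSeq gene table (GRCz12tu) held it (10711). No sequence or coordinate is given.

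Intensities were analysed as log2(signal + 50), which understates changes of dim probe sets. A comparison left out probe sets whose signal, averaged over its 2 groups, was below the 40th percentile. limma 3.58.1 in R 4.3.3 (lmFit, eBayes with an intensity trend; two-sided) gave p-values adjusted by Benjamini-Hochberg at 0.05. The 5 comparisons were lesioned against control retina with day as a block, its trend with log2 of the day, its difference between array blocks, brain against intact retina with array block as a term, and block 2 against block 1 in intact retina. The scripts were tested on simulated data. Arrays have no read depth, and their number limits the precision.

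Days pair the arrays by the design text. Deviations from the group means of the 2 arrays of a day correlated at 0.758 to 0.900, and at 0.323 to 0.679 within blocks. The first range also carries the difference between blocks. Days 2 and 14 share 1 within-block value (0.557), since block 1 has only these 2 days. Arrays of unlike days were not compared in this way, so these values do not test the pairing. Members and lists were chosen with earlier results of these data known. Named were the 3 genes, clock list genes called in a comparison, the 4 clock genes of smallest p after cry1b for the lesion and the 4 of smallest p for brain, and the 5 genes most like each of the 3. A withheld item that this rule would name is not reported here. Alternatives were other pseudocounts (16, 150), no filter, quantile normalization, median centring, no intensity trend, left-out arrays or pairs, other block terms, single blocks, all 11 retinas, and a GAPDH covariate. Figures used Python 3.11.15 (matplotlib 3.10.9, pandas 2.3.3).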

Additional observations from a re-analysis of the deposited data

Results flagged for a closer look

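The day 3 arrays stood apart for bmal1b. Its signal of 784.3 on the lesioned day 3 array was set apart from the other 4 lesioned retinas (265.9 to 393.5) by a gap that is large for a group of 5, and the control day 3 array did the same with 639.5 against 281.4 to 380.0 in the other 4 control retinas. The control day 3 array also stood apart among the 6 intact retinas, as signal (639.5) and as log2(signal + 50) (9.429). These flags come from 49 groups of arrays screened over 7 probe sets, of which 4 were flagged for a distant array, and chance flags about 1 in 20. The groups share arrays, and the flags of the control day 3 array all rest on the same value. The count of 4 in 49 therefore cannot be set directly against 1 in 20. The lesion ratio of day 3 (0.28) compares the lesioned and control day 3 arrays with each other.

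The lesion change of bmal1b lay above 0 on each day of block 2 (0.28, 0.04 and 0.07 on days 3, 5 and 7). It lay below 0 on each day of block 1 (-0.22 and -0.38 on days 2 and 14). The values of days 5 and 7 were close to 0. How many of all tested probe sets split by block in this way was not counted. The difference of 0.43 between blocks did not pass limma's test (adjusted p = 1).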

How the results depend on the processing

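For the lesion, cry1b kept its direction in all 15 alternatives (-0.65 to -0.48) and its call in 12; it was not called with no replicate block (-0.59), in block 1 alone (-0.53) or with the GAPDH covariate (-0.48). Leaving out each day in turn gave -0.64 to -0.55 (adjusted p up to 0.0224). bmal1b, never called for the lesion, ranged from -0.32 to 0.13 over the 15 alternatives. It changed sign in block 2 alone (0.13) and over left-out days (-0.12 to 0.04, with 0.00 without day 2 and 0.04 without day 14). Its slope with the day was 0.10 without day 14 (-0.28 to 0.10 over left-out days). For rorab the block difference of the lesion change was 0.04 without day 7 and 0.09 without day 14 (range -0.23 to 0.09). Its difference between block 2 and block 1 in intact retina was 0.36 with median centring and 0.02 over all 11 retinas. It was 0.17 without the true control and 0.11 without the day 5 control, with a range of -0.26 to 0.17 over left-out retinas. rorab was called in neither of these comparisons in any setting. bmal1b was called between blocks with median centring (0.70). For brain, cry1b had -1.51 with no filter, -0.72 with no array block term, and -1.86 to -1.21 over left-out retinas.

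Clock probe sets called for the lesion numbered 2 with quantile normalization, 3 with median centring, 1 to 2 over left-out days, and 0 with no replicate block, in block 1 alone and with the GAPDH covariate. For brain they numbered 2 with no array block term and 5 to 14 over left-out retinas. Over all probe sets, lesion calls (381) numbered 0 with no replicate block, 0 in block 1 alone, 10 with the GAPDH covariate and 165 to 573 over left-out days. Calls for the trend (10) numbered 5 with a pseudocount of 16, 4 with no filter, 6 without the intensity trend and 1 to 12 over left-out days. Block differences of the lesion change (0 by limma) numbered 0 to 9 over left-out days. Brain calls (2261) numbered 1073 with no array block term, and block calls (4119) 6290 with no filter.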
